A study of Mus musculus with 10 samples.

Results

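The D-type cyclins, their kinases CDK4 and CDK6, and the inhibitors of these kinases were followed across mouse B cell acute lymphoblastic leukemias (B-ALL) and 2 kinds of pro-B cell. The set has 10 genes, Ccnd1, Ccnd2, Ccnd3, Cdk4, Cdk6, Cdkn1a, Cdkn1b, Cdkn2a, Cdkn2b and Cdkn2c, of 27218 gene names on the array. All 17 probes that carry one of these names were taken, of 41174 non-control probes, and all 17 passed the filter on dim probes. Each passed only by being well above background on both arrays of at least 1 group.

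Total RNA was measured on 10 one-colour Agilent arrays, 2 in each of 5 groups. Leukemias 686, 713 and 760 are leukemic cells from the lymph nodes of 3 Ebf1+/- Pax5+/- mice (dHet, double heterozygous). The dHet pro-B cells are Ebf1+/- Pax5+/- Rag2-/- and were grown for a short term from c-Kit positive fetal liver cells on OP9 stromal feeders with stem cell factor, Flt3 ligand and interleukin 7. Fraction BC cells sorted from the bone marrow of control mice (Ebf1+/+ Pax5+/+) serve as wt pro-B cells. The leukemias and the dHet pro-B cells share the Ebf1 and Pax5 genotype, while culture, fetal origin and the Rag2 deletion belong to the dHet pro-B cells alone. Against wt pro-B cells, leukemia therefore cannot be told apart from tissue and the Ebf1 and Pax5 genotype. Against dHet pro-B cells, it cannot be told apart from tissue, culture, fetal origin and the Rag2 deletion. Between the 2 pro-B groups, genotype, tissue and culture cannot be told apart. The ages of the animals were not given in the sources used here. Whether replicates of a group are separate animals or cultures was not given, so p-values between single groups measure only how much these samples vary.

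D-type cyclins are made in response to growth signals, bind CDK4 or CDK6 and start the phosphorylation of the retinoblastoma protein RB, which then releases E2F transcription factors and lets the cell enter S phase. In early B cells the interleukin 7 receptor and the pre-B cell receptor feed into cyclin D2 and cyclin D3. The INK4 inhibitors, among them p16INK4a and p15INK4b, bind CDK4 and CDK6 directly. The CIP/KIP inhibitors p21 and p27 mainly block CDK2 complexes. Cdkn2a also encodes ARF from an alternative first exon, which stabilises p53 by holding back MDM2.

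A level is the log2 of the processed intensity minus the 75th percentile of its array, so 0 is that percentile, and levels are compared only within a probe. A gene is represented by the probe with the highest mean level. The share of non-control spots well above background was between 35.9% and 52.4%, lowest on replicate 1 of leukemia 686. No spot was saturated. Replicates correlated across probes at r between 0.945 and 0.993. The leukemia replicate 1 arrays share a slide and a scan day, their replicate 2 arrays share another slide, and the 4 pro-B arrays lie on another slide scanned on the day of the second. Slide and group therefore cannot be told apart between leukemias and pro-B cells. Of 4 Y-linked genes, 4 were well above background on dHet pro-B replicate 1 and 0 on replicate 2, with a median difference of 6.63 on the log2 scale. In leukemia 760 these counts were 2 and 0 (median difference 2.28), and in the other groups the replicates differed by at most 0.35. The 2 dHet pro-B arrays therefore did not hold the same RNA, and calls that were lost without one of them are given with their results. Whether the 2 arrays of leukemia 760 held the same RNA was not tested, and they were averaged as 1 mouse. Of 12 pro-B cell markers, 10 to 12 were well above background on each leukemia array and all 12 on each pro-B array. Pax5 itself was not well above background on either array of leukemias 686 and 760. Rag2 was well above background on both dHet pro-B arrays at a mean level of -0.99, against -1.65 in wt pro-B cells. Which part of Rag2 its probe and the deletion cover was not given, so this does not check the genotype.

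Of the probes behind the main results, 5 whose sequence reads as an open frame are shown first, since they show where each message was measured. They are oligos of the array's design, placed on mm9. The first cyclin D2 probe, A_51_P433228 (chr6:127089187-127089246, minus strand), and the second, A_52_P53906 (chr6:127098696-127098755, minus strand), lie in different parts of the Ccnd2 transcript. The Cdk4 probe A_51_P437027 lies at chr10:126501967-126502026 on the plus strand. The Cdk6 probe A_52_P417489 spans an exon junction, from chr5:3473220-3515504 on the plus strand. The Cdkn1b probe A_51_P169173 lies at chr6:134871103-134871161 on the plus strand and was spotted 10 times.
Ccnd2 A_51_P433228: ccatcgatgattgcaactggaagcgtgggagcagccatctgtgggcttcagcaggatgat
Ccnd2 A_52_P53906: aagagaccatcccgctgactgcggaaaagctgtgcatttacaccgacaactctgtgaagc
Cdk4 A_51_P437027: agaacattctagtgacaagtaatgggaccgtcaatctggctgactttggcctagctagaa
Cdk6 A_52_P417489: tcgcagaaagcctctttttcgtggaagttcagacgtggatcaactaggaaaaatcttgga
Cdkn1b A_51_P169173: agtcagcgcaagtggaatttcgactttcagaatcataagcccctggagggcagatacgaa

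Of the 10 genes, 5 were higher in leukemias than in wt pro-B cells (Ccnd1, Ccnd2, Cdk4, Cdk6 and Cdkn2c), and 1 was lower, Cdkn1b. Over all 14464 genes tested, 31.2% were higher and 27.6% lower in that comparison. Against dHet pro-B cells 3 genes were higher (Ccnd1, Ccnd2 and Cdk4) and Cdkn1b was again lower, beside 21.7% higher and 24.5% lower of all genes. In dHet against wt pro-B cells 4 genes were higher (Cdk4, Cdk6, Cdkn2a and Cdkn2b) and Ccnd1 was lower, beside 15.6% higher and 14.2% lower of all genes. The median change of the 10 genes was 1.27, -0.68 and 0.94 in these 3 comparisons, beside 0.06, -0.06 and 0.13 over all genes. Calls are limma tests with Benjamini-Hochberg adjusted p under 0.05 over all probes. The leukemias entered the first 2 comparisons as 3 mice, and the 2 pro-B groups were compared over all 10 arrays in 5 groups. In RNA of whole samples, fewer cells of a type and less RNA per cell cannot be told apart.

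**Figure D1:**
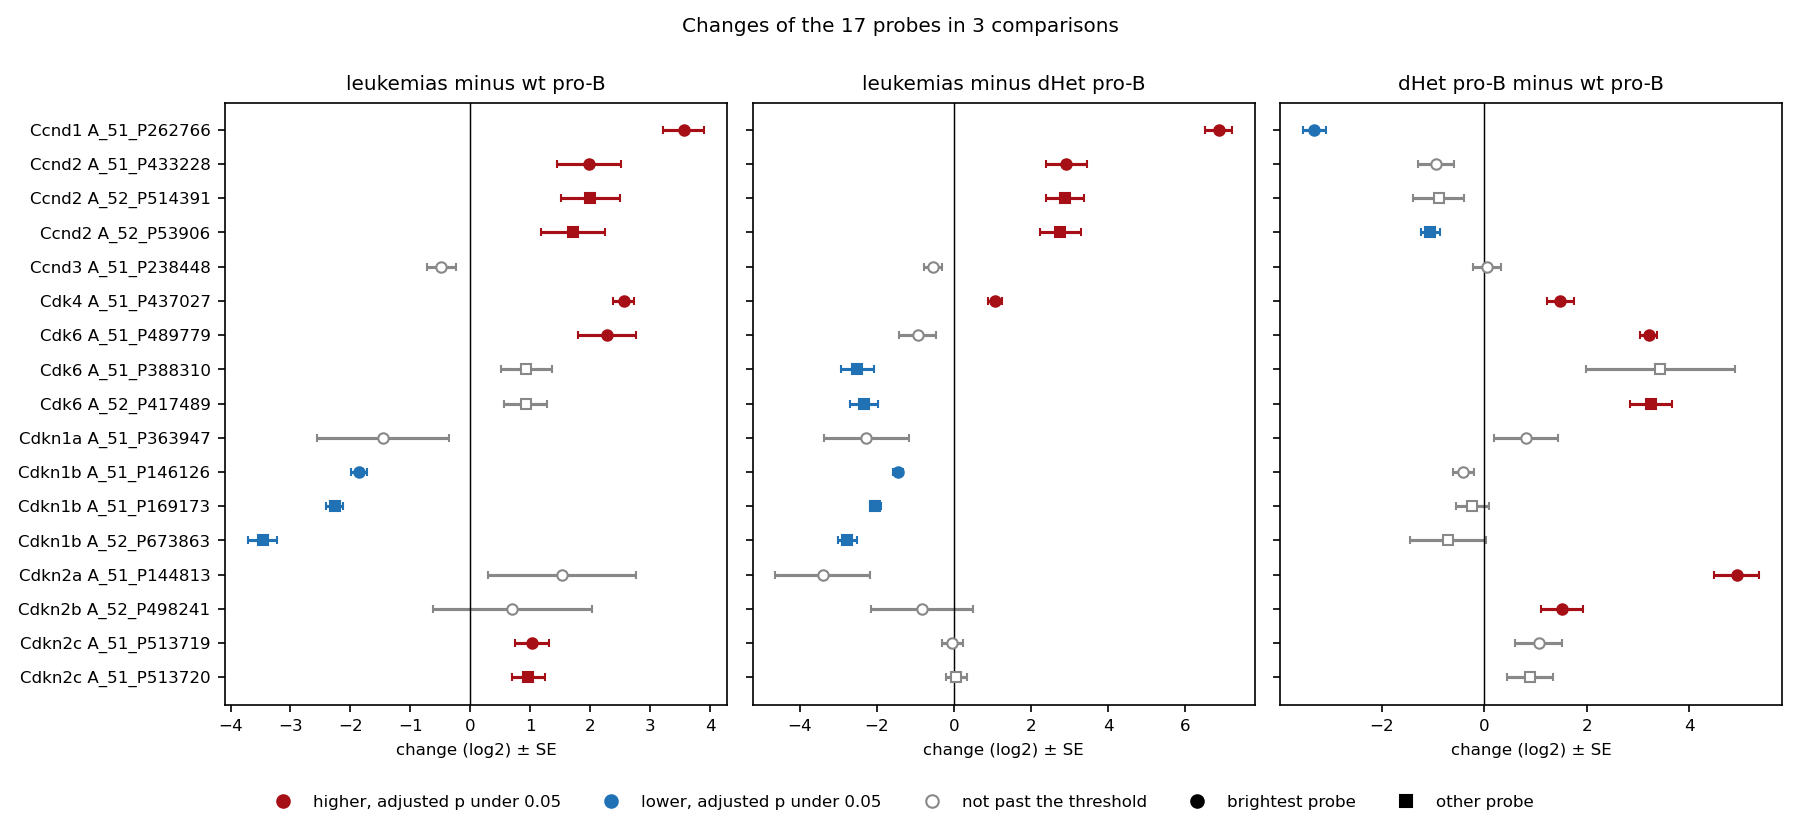
Log2 change and its standard error (x axis) for each of the 17 probes (rows) in the leukemias minus wt pro-B, the leukemias minus dHet pro-B and dHet pro-B minus wt pro-B. Red and blue points passed an adjusted p of 0.05, open points did not, and squares are the dimmer probes of a gene. Cdkn1b lies left of 0 at all 3 probes in both leukemia comparisons, and Ccnd1 reaches 6.87 against dHet pro-B cells.

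Among the D cyclins, Ccnd1 separated the 3 kinds of sample most widely. Its levels were 2.68 and 2.73 in leukemia 686, 2.68 and 2.46 in leukemia 713, 1.84 and 1.53 in leukemia 760, -4.29 and -4.81 in dHet pro-B cells, and -1.27 and -1.20 in wt pro-B cells. The probe, A_51_P262766 (chr7:152116173-152116232, minus strand, mm9), was spotted 10 times. All 10 spots were well above background on every leukemia and wt pro-B array, and none of 10 was on either dHet pro-B array. No leukemia array overlapped a pro-B array, and leukemias 686 and 713, which did not separate from each other, lay above leukemia 760, wt and then dHet pro-B cells.

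Ccnd1 was 11.8-fold higher in the leukemias, by 3.56 ± 0.34 on the log2 scale (SE), relative to wt pro-B cells ( 3 mice against 2 arrays, limma adjusted p = 0.000653). Against dHet pro-B cells it was at least 83.0-fold higher (adjusted p = 0.000459), a bound that sets the dHet arrays at their dimmest probe well above background. This bound holds for that processing: the change was 3.70 after normexp and quantile normalization and 3.61 in the authors' value table, where it also passed. In dHet pro-B cells it was at least 7.06-fold lower than in wt pro-B cells (adjusted p = 0.000142), and the change was -0.97 and -0.86 under the same alternatives, again past the threshold. Markers of other cells were read beside it, as sums of linear signal in multiples of the array's 75th percentile. The 10 stromal markers summed to between 0.382 and 1.36 in the leukemias, with 0 to 4 detected, between 0.302 and 0.319 in dHet pro-B cells and between 1.44 and 2.52 in wt pro-B cells. Col1a1, Pdgfra, Pdgfrb, Lum and Cxcl12 were not well above background on any array. The 8 endothelial markers summed to between 17.1 and 106.5 in the leukemias, with 2 to 4 detected, between 18.8 and 20.0 in dHet pro-B cells and between 6.63 and 7.31 in wt pro-B cells. Egfl7 gave most of that sum, and Tek and Vwf were not detected. The 12 T cell markers summed to between 12.3 and 54.4 in the leukemias, with 6 to 9 detected, between 10.9 and 13.5 in dHet and between 4.85 and 5.18 in wt pro-B cells, and Cd4 and Cd28 were not detected. Cd3d had mean levels of 0.86, 0.80 and -0.42 in leukemias 686, 713 and 760, against -4.24 in dHet and -3.95 in wt pro-B cells. The myeloid marker Csf1r had 0.47, -0.11 and -2.34 in these leukemias, not well above background (-6.23) in dHet and -3.52 in wt pro-B cells, the same group order as Ccnd1. The list of 12 myeloid markers did not share that order. Its sums were 12.5 to 130.7 in the leukemias, 18.8 to 21.1 in dHet and 77.1 to 152.1 in wt pro-B cells. Of 11 measured, 1 was higher and 6 lower in leukemias than in wt pro-B cells, and 2 and 1 against dHet pro-B cells. The part of such cells in the Ccnd1 levels was not tested.

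**Figure D2:**
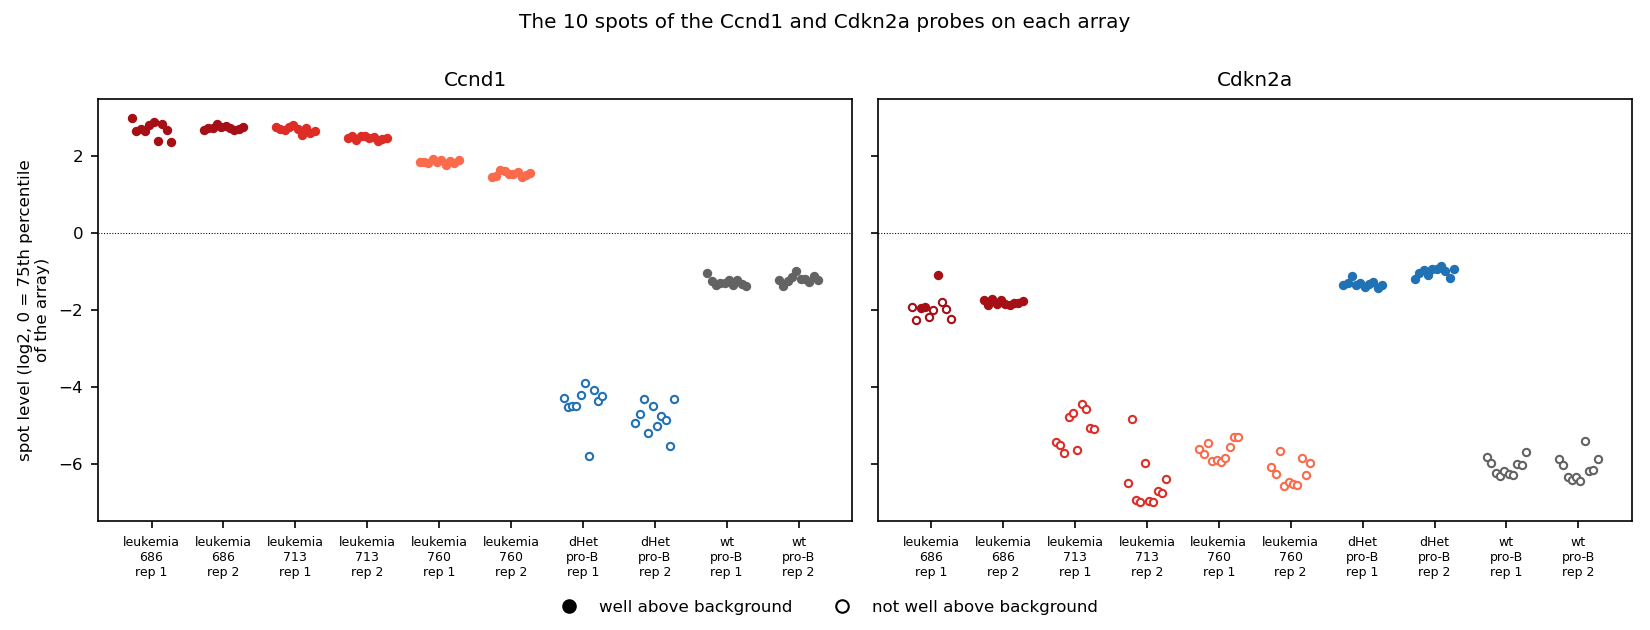
Levels of the 10 replicate spots (y axis, log2 relative to the 75th percentile of the array) of the Ccnd1 and Cdkn2a probes on each of the 10 arrays (x axis). Filled spots were well above background and open spots were not. For Ccnd1 only the dHet pro-B arrays have no filled spot, while for Cdkn2a filled spots appear only in leukemia 686 and dHet pro-B cells.

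Ccnd2, a D cyclin tied to interleukin 7 signalling in early B cells, was higher in the leukemias at each of its 3 probes. At the brightest probe its levels were 4.85 and 4.32 in leukemia 686, 4.97 and 4.16 in leukemia 713, 6.63 and 5.91 in leukemia 760, 2.14 and 2.29 in dHet pro-B cells, and 3.17 and 3.15 in wt pro-B cells. All leukemia arrays lay above all pro-B arrays, leukemia 760 above the other two, and dHet below wt pro-B cells. The change was 1.98 ± 0.53 against wt pro-B cells (3.94-fold, adjusted p = 0.0214) and 2.92 ± 0.53 against dHet pro-B cells (7.57-fold, adjusted p = 0.00747). The other 2 probes, A_52_P514391 (chr6:127079694-127079753) and A_52_P53906, changed by 2.0 and 1.71 against wt and by 2.89 and 2.76 against dHet pro-B cells. The calls against wt were lost in 4 of 24 alternatives at the first of these (highest adjusted p = 0.0853) and in 10 of 24 at the second (highest adjusted p = 0.138), normexp, quantile normalization and the authors' value table among them. At A_52_P53906 the value against wt had an adjusted p of 0.0603 without either dHet array, and the value against dHet pro-B cells was 2.58 (adjusted p = 0.0653) without dHet replicate 1. At the brightest probe the call against wt pro-B cells was lost with slide as a random block (adjusted p = 0.0893) and without replicate 1 (adjusted p = 0.0968) or replicate 2 (adjusted p = 0.0971) of the wt group, where the change was 1.99 or 1.97. Its adjusted p ranged between 7.78e-05 and 0.0971 over its alternatives. Without dHet pro-B replicate 1 the change against dHet pro-B cells was 2.85 (adjusted p = 0.0542).

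Between the pro-B groups Ccnd2 gave a change of -0.94 ± 0.35 in dHet cells (95% interval -1.78 to -0.11, adjusted p = 0.0914) at the brightest probe. The probe A_52_P53906 passed (-1.05 ± 0.19, adjusted p = 0.00657, or -0.87 and 0.0633 without dHet replicate 1) and A_52_P514391 did not (-0.89 ± 0.50, adjusted p = 0.242). The brightest probe passed in 9 of 23 alternatives, with adjusted p between 0.00138 and 0.327 in all. Among them were normexp with quantile normalization (-1.07, adjusted p = 0.00994), the authors' value table (-1.05, adjusted p = 0.0180) and scan day as a block (adjusted p = 0.00138).

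Ccnd3, the cyclin on which proliferating precursor B cells mainly depend, was bright everywhere and passed in none of the 3 comparisons. Its levels were 4.45 and 4.18 in leukemia 686, 5.27 and 4.91 in leukemia 713, 5.10 and 4.38 in leukemia 760, 5.25 and 5.26 in dHet pro-B cells, and 5.08 and 5.32 in wt pro-B cells. The groups overlapped, and only leukemia 686 lay wholly below both pro-B groups and leukemia 713. The change in the leukemias was -0.48 ± 0.24 against wt (95% interval -1.08 to 0.12, adjusted p = 0.137) and -0.54 ± 0.24 against dHet pro-B cells (-1.14 to 0.06, adjusted p = 0.119). In dHet against wt pro-B cells it was 0.06 ± 0.28 (-0.59 to 0.70). Against wt the call depended on the normalization, with -0.95 (adjusted p = 0.00511) after normexp and quantile normalization and a positive 0.08 with scaling by the array median, and adjusted p between 0.00451 and 0.849 in all. With scan day as a block, arrays took the place of mice as replicates. There Ccnd3 passed at -0.71 against wt (adjusted p = 0.00499) and -0.76 against dHet pro-B cells (adjusted p = 0.00470). Against dHet pro-B cells it passed in 4 of 24 alternatives, with adjusted p between 0.00470 and 0.468. Among them were normexp with quantile normalization (-0.68, adjusted p = 0.0238) and the authors' value table (-0.74, adjusted p = 0.0193).

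**Figure D3:**
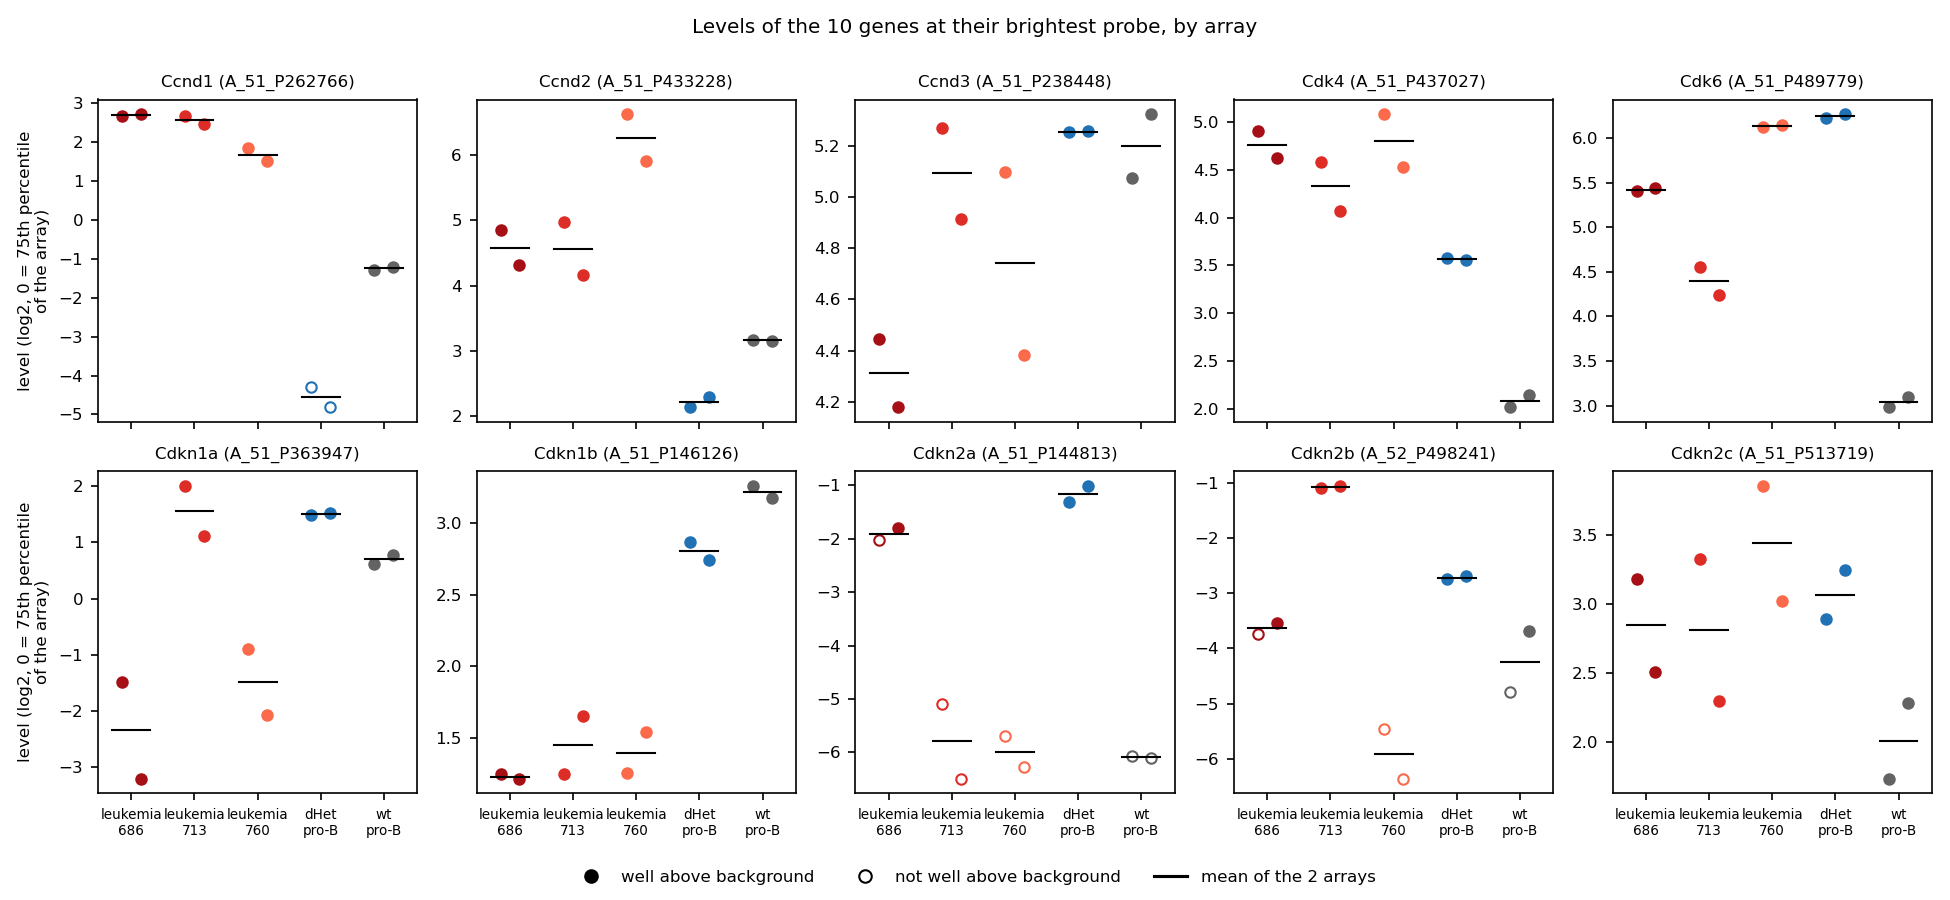
Level of each of the 10 genes at its brightest probe (y axis, log2 relative to the 75th percentile of the array) on the 2 arrays of leukemias 686, 713 and 760, dHet pro-B and wt pro-B cells (x axis), with the group mean as a line. Open points were not well above background. Cdk4 and Cdk6 are lowest in wt pro-B cells, and Cdkn1b is lowest in the leukemias.

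Cdk4, which encodes a catalytic partner of the D cyclins, was higher in the leukemias than in dHet pro-B cells and higher in dHet than in wt pro-B cells. Its levels were 4.91 and 4.62 in leukemia 686, 4.59 and 4.07 in leukemia 713, 5.08 and 4.53 in leukemia 760, 3.57 and 3.56 in dHet pro-B cells, and 2.02 and 2.14 in wt pro-B cells. The 3 leukemias overlapped one another and lay above both pro-B groups, which did not overlap. Against wt pro-B cells the leukemias were 5.87-fold higher (2.55 ± 0.18, adjusted p = 0.000325), and against dHet pro-B cells 2.09-fold higher (1.07 ± 0.18, adjusted p = 0.00605). The dHet were 2.80-fold above wt pro-B cells (1.49 ± 0.26, adjusted p = 0.00638), a call lost without wt replicate 1 (1.43, adjusted p = 0.0535).

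Cdk6, the other partner of the D cyclins and the more abundant one in many blood cells, had the same order of group means at its 3 probes, with dHet pro-B cells highest, then leukemias 760, 686 and 713, and wt pro-B cells lowest. The brightest probe, A_51_P489779 (chr5:3529287-3529346), lies far downstream on a long predicted transcript. There the levels were 5.40 and 5.44 in leukemia 686, 4.55 and 4.24 in leukemia 713, 6.12 and 6.14 in leukemia 760, 6.22 and 6.27 in dHet pro-B cells, and 2.99 and 3.10 in wt pro-B cells. Every leukemia and dHet pro-B array lay above both wt arrays. The leukemias were 4.83-fold above wt pro-B cells (2.27 ± 0.48, adjusted p = 0.00885), or 2.22 (adjusted p = 0.0579) without wt replicate 1, and dHet pro-B cells 9.21-fold above wt (3.20 ± 0.17, adjusted p = 5.18e-05). Relative to dHet pro-B cells the value was -0.93 ± 0.48 (95% interval -2.11 to 0.25, adjusted p = 0.160). That difference passed with scan day (-0.97, adjusted p = 0.000917) or replicate number (adjusted p = 0.00257) as a block, fits with arrays in place of mice as replicates. Its adjusted p lay between 0.000917 and 0.383 over its alternatives.

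The exon junction probe of Cdk6 shown above had levels of -0.22 and 0.76 in leukemia 686, -0.72 and 0.13 in leukemia 713, 0.67 and 1.24 in leukemia 760, 2.63 and 2.65 in dHet pro-B cells, and -0.70 and -0.52 in wt pro-B cells. Here the dHet pro-B arrays stood above all others, and the leukemia and wt arrays overlapped. At this probe the leukemias were 5.02-fold below dHet pro-B cells (-2.33 ± 0.36, adjusted p = 0.00423) and differed from wt by 0.92 ± 0.36 (0.05 to 1.79, adjusted p = 0.0670). The value against wt passed in 6 of 24 alternatives, with adjusted p up to 0.305. Among them were scaling by the array median (1.49, adjusted p = 0.0160) and scan day as a block with arrays in place of mice (1.32, adjusted p = 0.000279). The dHet pro-B cells were 9.52-fold above wt (3.25 ± 0.41, adjusted p = 0.00156), close to the value of the brightest probe. The third probe, A_51_P388310 (chr5:3521669-3521728), was not well above background on any of the 3 leukemia arrays of the first slide, at -4.18, -5.03 and -3.75, and was on those of the second, at -1.06, -2.14 and -0.33. It had -0.30 and -0.20 in dHet and -3.63 and -3.74 in wt pro-B cells. Its change of -2.50 ± 0.43 in the leukemias against dHet pro-B cells (adjusted p = 0.00628) was -0.93 (adjusted p = 0.181) with the leukemia arrays of the second slide alone, and -1.93 (adjusted p = 0.132) without leukemia 760 replicate 1. Against wt pro-B cells the leukemias differed by 0.93 ± 0.43 at this probe (adjusted p = 0.110), and by 2.50 (adjusted p = 0.00827) with the second slide alone. The dHet pro-B cells differed from wt by 3.44 ± 1.45 there, 10.8-fold (adjusted p = 0.126), which passed in 7 of 22 alternatives, among them scan day as a block (adjusted p = 4.52e-05) and either leukemia slide alone (adjusted p = 0.000156). All 3 Cdk6 probes thus had a positive value in the leukemias against wt, a negative one against dHet pro-B cells and a positive one in dHet against wt pro-B cells, and differed in which of these passed.

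**Figure D4:**
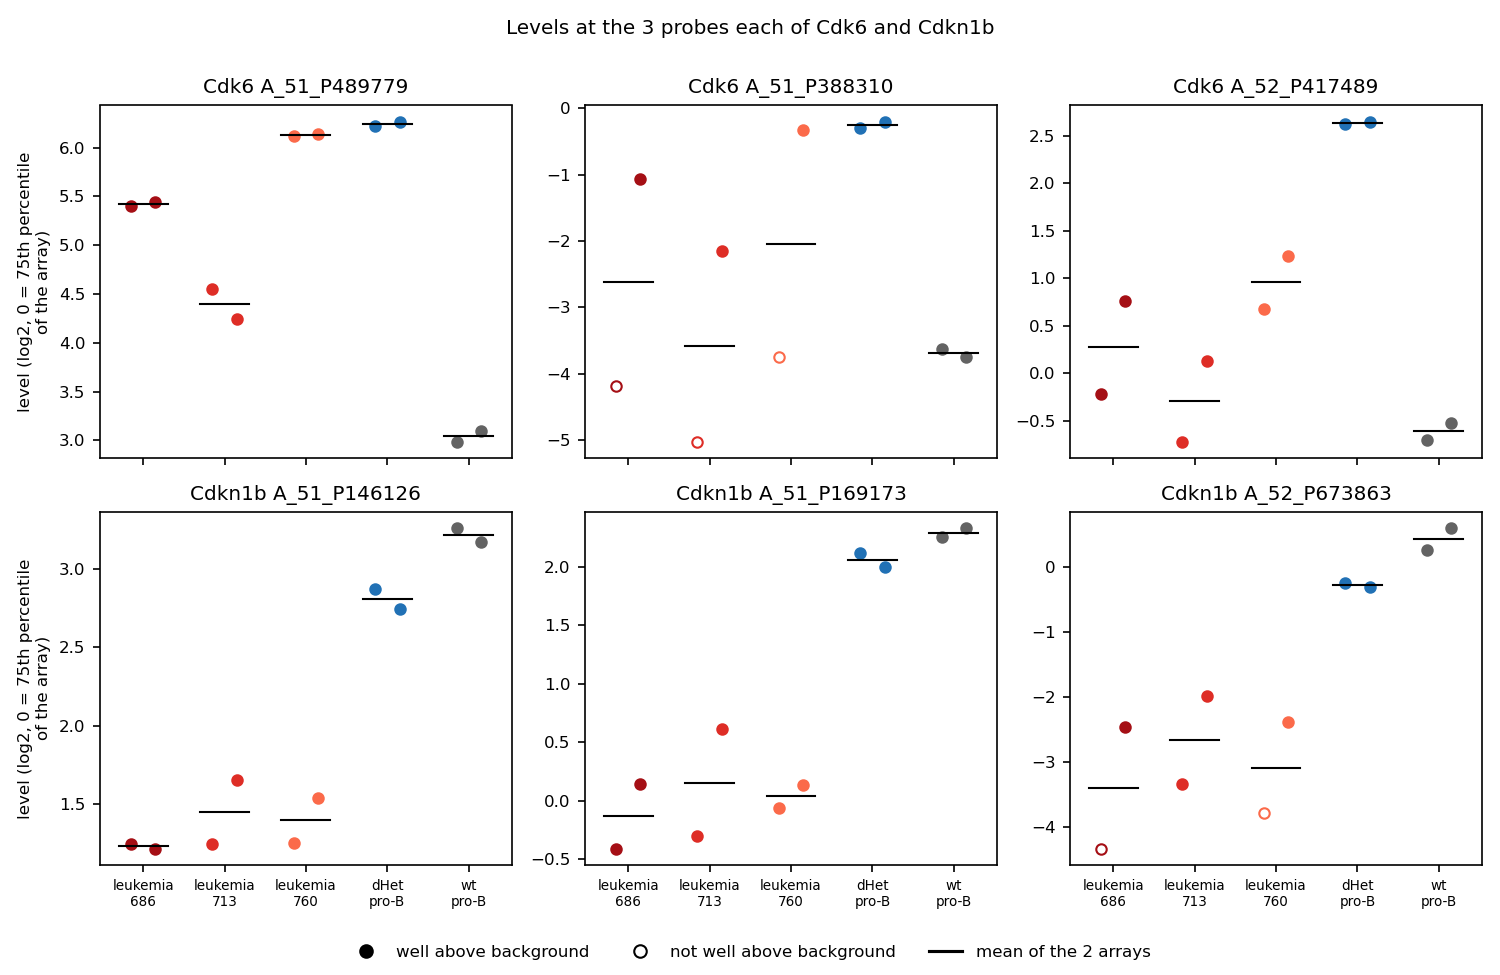
Levels (y axis, log2 relative to the 75th percentile of the array) at the 3 probes of Cdk6 (top) and the 3 of Cdkn1b (bottom) in the 5 groups (x axis), with filled points well above background and the group mean as a line. The dHet pro-B arrays are high at all Cdk6 probes, and the leukemias are below both pro-B groups at all Cdkn1b probes.

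Promoters of these genes were read from RefSeq (GRCm38.p6, 250 bases before to 50 after a gene's start), where 8 of the 10 genes had 12 promoters. Ccnd1 and Ccnd2 were not in the table. The E-box CACGTG, the sequence bound by MYC with its partner MAX, was searched because Myc was among the regulators measured below, and it reads the same on both strands. Of all 32851 promoters 7.15% held it. Among the members it was found in the promoters of Cdk4 (4 copies), Cdk6 (1 copy) and 1 of the 2 starts of Cdkn2c (1 copy). These windows are chr10:127063285-127063584 (plus strand), chr5:3343643-3343942 (plus strand) and chr4:109665323-109665622 (minus strand), with the E-box in capitals. A match is a description of the letters and does not show binding.
Cdk4 promoter: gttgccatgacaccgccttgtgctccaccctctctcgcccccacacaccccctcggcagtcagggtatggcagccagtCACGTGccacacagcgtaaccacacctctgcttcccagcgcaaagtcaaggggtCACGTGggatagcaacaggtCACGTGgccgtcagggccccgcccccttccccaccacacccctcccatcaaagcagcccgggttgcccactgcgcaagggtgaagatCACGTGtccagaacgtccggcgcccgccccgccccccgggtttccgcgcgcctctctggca
Cdk6 promoter: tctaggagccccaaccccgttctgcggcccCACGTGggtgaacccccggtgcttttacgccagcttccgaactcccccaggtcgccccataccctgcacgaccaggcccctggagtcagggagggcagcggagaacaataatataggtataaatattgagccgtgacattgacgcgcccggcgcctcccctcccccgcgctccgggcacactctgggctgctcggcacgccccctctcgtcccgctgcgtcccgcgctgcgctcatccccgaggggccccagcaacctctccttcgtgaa
Cdkn2c promoter: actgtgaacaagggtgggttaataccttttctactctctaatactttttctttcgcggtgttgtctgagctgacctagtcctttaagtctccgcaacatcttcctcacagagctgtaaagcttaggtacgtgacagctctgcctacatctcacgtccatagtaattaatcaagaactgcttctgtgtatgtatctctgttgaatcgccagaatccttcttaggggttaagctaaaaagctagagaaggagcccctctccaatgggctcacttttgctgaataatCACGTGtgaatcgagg

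The same windows were searched on both strands for a STAT dimer site and for E2F and SP1 type sites. The STAT motif TTCNNNGAA, in 8.3% of all promoters, was in no member window. Among the E2F type motifs, TTTCCCGC (1.07% of all promoters) was in the upstream start of Cdkn2a, and CGCGAAA (0.85%) was in the Cdkn2c window shown. TTTGGCGC (0.51%) and GGCGGGAA (2.19%) were in none. The reverse strand of TTTCCCGC overlaps GGCGGGAA in 7 letters. The GC box GGGCGG, in 35.7% of all promoters, was in 9 of the 12 member windows.

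Cdkn1b, which encodes p27, was the one member lower in the leukemias than in both pro-B groups. At its brightest probe, A_51_P146126 (chr6:134875215-134875274), levels were 1.24 and 1.21 in leukemia 686, 1.24 and 1.65 in leukemia 713, 1.25 and 1.54 in leukemia 760, 2.87 and 2.75 in dHet pro-B cells, and 3.26 and 3.18 in wt pro-B cells. The 3 leukemias overlapped, and lay below every pro-B array. The leukemias were 3.64-fold below wt (-1.86 ± 0.13, adjusted p = 0.000325) and 2.74-fold below dHet pro-B cells (-1.45 ± 0.13, adjusted p = 0.00106). At the probe spotted 10 times, shown above, levels were -0.41 and 0.14 in leukemia 686, -0.30 and 0.61 in leukemia 713, -0.06 and 0.14 in leukemia 760, 2.12 and 1.99 in dHet pro-B cells, and 2.25 and 2.33 in wt pro-B cells. There the leukemias were 4.81-fold below wt (-2.27 ± 0.14, adjusted p = 0.000264) and 4.09-fold below dHet pro-B cells (-2.03 ± 0.14, adjusted p = 0.000639). The third probe, A_52_P673863 (chr6:134873606-134873665), lies in another annotated transcript. It gave changes of -3.47 ± 0.24 and -2.76 ± 0.24, or -3.09 and -2.39 with the 2 leukemia arrays not well above background set at the dimmest detected level. Between the pro-B groups Cdkn1b gave a change of -0.41 ± 0.20 in dHet cells (95% interval -0.89 to 0.07, adjusted p = 0.184). This value passed in 5 of 23 alternatives, among them normexp with quantile normalization (-0.63, adjusted p = 0.0229) and the authors' value table (-0.66, adjusted p = 0.0135).

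Cdkn1a, which encodes p21 and is a classic target of p53, varied widely between leukemias. Its levels were -1.49 and -3.21 in leukemia 686, 2.0 and 1.12 in leukemia 713, -0.91 and -2.08 in leukemia 760, 1.48 and 1.53 in dHet pro-B cells, and 0.61 and 0.78 in wt pro-B cells. Leukemia 713 overlapped dHet pro-B cells and lay above wt, while leukemias 686 and 760 lay below both pro-B groups. The replicate 1 array of each leukemia was the brighter one. Over the 3 mice the change was -1.46 ± 1.1 against wt (95% interval -4.16 to 1.25, adjusted p = 0.295) and -2.27 ± 1.1 against dHet pro-B cells (-4.98 to 0.44, adjusted p = 0.140). With scan day as a block and arrays in place of mice as replicates it passed at -2.09 (adjusted p = 0.00022, range over its alternatives 0.00022 to 0.528) and -2.90 (adjusted p = 0.000104, range 0.000104 to 0.367). In dHet against wt pro-B cells it differed by 0.81 ± 0.62 (-0.64 to 2.27, adjusted p = 0.384).

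Cdkn2a, the gene of p16INK4a and ARF, was detected in dHet pro-B cells and in leukemia 686 alone. Its probe, A_51_P144813 (chr4:88920545-88920604, minus strand, mm9), is annotated to both transcripts, so p16INK4a and ARF were not measured apart. Of 10 spots, 3 were well above background on replicate 1 and 10 on replicate 2 of leukemia 686, 10 on both dHet pro-B arrays, and none on any array of leukemias 713 and 760 or of wt pro-B cells. The levels were -2.02 and -1.80 in leukemia 686, -5.09 and -6.49 in leukemia 713, -5.70 and -6.28 in leukemia 760, -1.32 and -1.01 in dHet pro-B cells, and -6.07 and -6.10 in wt pro-B cells. Replicate 1 of leukemia 686 is counted as not well above background, since under 50% of its spots were, although its level lay near that of replicate 2. The dimmest probe well above background on that array was at -2.13, against -4.73 on replicate 2.

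Cdkn2a was at least 7.68-fold higher in dHet than in wt pro-B cells (adjusted p = 0.000394). The probe passed the filter on dim probes through the dHet pro-B arrays alone, and had an adjusted p of 0.0025 with no such filter. The change of 4.92 was 1.34 after normexp and quantile normalization and 1.14 in the authors' value table, so the bound holds for the processing used here. In the leukemias Cdkn2a did not pass against wt (1.52 ± 1.23, 95% interval -1.50 to 4.55, adjusted p = 0.325). This value passed in 2 of 23 alternatives, with replicate number (adjusted p = 0.00973) or scan day (1.23, adjusted p = 0.0162) as a block. Both took arrays in place of mice as replicates. Against dHet pro-B cells the value was -3.40 ± 1.23 (adjusted p = 0.0664), or -2.18 with undetected arrays at the dimmest detected level. The value against dHet pro-B cells passed after normexp and quantile normalization (-0.96, adjusted p = 0.0332). With scan day as a block and arrays in place of mice as replicates it also passed (-3.69, adjusted p = 0.000303). Its adjusted p lay between 0.000303 and 0.224 over its alternatives. The 12 myeloid markers summed to between 12.5 and 130.7 in the leukemias, highest on both arrays of leukemia 686, to between 18.8 and 21.1 in dHet and between 77.1 and 152.1 in wt pro-B cells. The part of myeloid cells in the level of leukemia 686 was not tested.

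Cdkn2b, the gene of p15INK4b next to Cdkn2a, followed another order. Its levels were -3.74 and -3.53 in leukemia 686, -1.09 and -1.06 in leukemia 713, -5.46 and -6.36 in leukemia 760, -2.75 and -2.70 in dHet pro-B cells, and -4.80 and -3.68 in wt pro-B cells. It was not well above background on replicate 1 of leukemia 686, on both arrays of leukemia 760 and on replicate 1 of wt pro-B cells. Leukemia 713 stood above all other groups, and the dHet pro-B cells came next. The leukemias as a group did not pass against wt (0.70 ± 1.33, 95% interval -2.56 to 3.96) or dHet pro-B cells (-0.82 ± 1.33, -4.08 to 2.44). The dHet pro-B cells were above wt (1.52 ± 0.41, adjusted p = 0.0326), or 1.13 with the undetected wt array at the dimmest detected level. That call was lost without dHet replicate 1 (1.54), dHet replicate 2 (1.49) or wt replicate 1 (0.96). It was also lost with no filter on dim probes (1.52, adjusted p = 0.110) and in the authors' value table (0.36, adjusted p = 0.0553).

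Cdkn2c, which encodes the INK4 inhibitor p18, was higher in leukemias than in wt pro-B cells. Its levels were 3.18 and 2.51 in leukemia 686, 3.32 and 2.30 in leukemia 713, 3.85 and 3.02 in leukemia 760, 2.89 and 3.25 in dHet pro-B cells, and 1.74 and 2.28 in wt pro-B cells. All leukemia arrays lay above both wt arrays, though the lowest, 2.30, only just above 2.28, and the leukemias overlapped dHet pro-B cells. The change against wt was 1.02 ± 0.28 (2.03-fold, adjusted p = 0.0220), and 0.97 ± 0.27 at a second probe that shares 40 bases with the first. The call was lost in 9 of 24 alternatives, among them the second leukemia slide alone (0.60, adjusted p = 0.123), the exclusion of leukemia 713 replicate 1 (0.85, adjusted p = 0.102) and that of wt replicate 1 (0.75, adjusted p = 0.140). Against dHet pro-B cells the change was -0.04 ± 0.28 (95% interval -0.72 to 0.65), and dHet differed from wt pro-B cells by 1.06 ± 0.45 (0.00 to 2.12, adjusted p = 0.129).

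The 3 leukemias were next compared with one another, each against the mean of the other two, over all 10 arrays. In leukemia 686, 1 of the 10 genes passed, beside 3.55% of all genes. Cdkn2a was at least 4.43-fold higher there, against the undetected arrays of the other two at their dimmest detected level, with both arrays of leukemia 686 at their own levels, of which replicate 2 alone counts as detected (3.98 ± 0.38, adjusted p = 0.00560). The Cdkn2a bound holds for the processing used here. Its change lay between 0.75 and 4.58 over 22 alternatives and passed in each. In leukemia 713, 4 genes passed, beside 13.8% of all genes, and in leukemia 760, 5 genes, beside 11% of all genes. In all, 6 of 10 members passed in at least 1 of the 3 tests, beside 17.6% of all genes. The arrays of 3 leukemias with the same replicate number share a slide and scan day, and with scan day as a block 8 of 10 members passed. Of all genes, 5.42% were then higher and 7.58% lower in leukemia 686, 17.3% and 14.5% in leukemia 713, and 11.8% and 12.6% in leukemia 760. The members added were Ccnd3 in leukemia 686 (-0.60, adjusted p = 0.0394) and in leukemia 713 (0.57, adjusted p = 0.0232) and Cdk4 in leukemia 713 (-0.46, adjusted p = 0.0189). These p-values rest on arrays within a group, not on the variation between mice.

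Leukemia 713 had the most inhibitor RNA at Cdkn1a, 11.2-fold above the other leukemias (3.48 ± 0.54, adjusted p = 0.00677, or 3.04 and 0.0515 without its replicate 1), and at Cdkn2b, 13-fold above (3.70 ± 0.36, adjusted p = 0.00136), or 2.35 on the log2 scale with undetected arrays at the dimmest detected level. The Cdkn2b change lay between 0.94 and 3.92 over 22 alternatives and passed in each. Leukemia 713 had the least Cdk6 at the brightest probe, 2.61-fold below the others (-1.38 ± 0.15, adjusted p = 0.00191). The junction probe of Cdk6 gave -0.91 ± 0.35 and did not pass (adjusted p = 0.160). It passed in 4 of 23 alternatives, among them scan day as a block (adjusted p = 0.00322) and slide as a random block (adjusted p = 0.00723). Ccnd2 in leukemia 713 did not pass at its brightest probe (-0.86 ± 0.31, adjusted p = 0.128). It passed there in 7 of 23 alternatives, among them normexp with quantile normalization (-0.81, adjusted p = 0.0322) and scan day as a block (adjusted p = 0.00229). The probe A_52_P53906 passed (-0.98 ± 0.16, adjusted p = 0.00885), a call lost in 3 of 23 alternatives, and A_52_P514391 did not (-1.12 ± 0.44, adjusted p = 0.163). The stromal marker sums of leukemia 713, 1.36 and 1.32, were the highest of the leukemias, with 4 of 10 markers detected. The part of stromal cells in these levels was not tested.

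Leukemia 760 had the most Ccnd2, 3.23-fold above the others (1.69 ± 0.31, adjusted p = 0.0152), and the most Cdk6 at the brightest probe, 2.34-fold above (1.22 ± 0.15, adjusted p = 0.00331). Without replicate 1 of leukemia 760 the Ccnd2 difference was 1.33 (adjusted p = 0.110). A second Ccnd2 probe, A_52_P53906, gave 1.67 ± 0.16 (adjusted p = 0.00142), and the third gave 1.47 ± 0.44 (adjusted p = 0.0908). The T cell marker sums of leukemia 760, 54.4 and 37.7, were the highest of all groups. Lck and Lat were the brightest of these markers there, and Lck, Lat and Cd247 had their highest mean levels in this leukemia. Cd3d, Cd8a and Cd8b1, well above background on every leukemia array, were instead lowest in leukemia 760 among the leukemias. Mean levels in leukemias 686, 713 and 760 were 1.15, 1.51 and 4.12 for Lat, and 1.17, 1.44 and 0.05 for Cd8b1. The part of T cells in the Ccnd2 and Cdk6 levels was not tested. Leukemia 760 had the least Ccnd1, 1.93-fold below the others (-0.95 ± 0.20, adjusted p = 0.0259), and at least 3.17-fold less Cdkn2b (adjusted p = 0.00156). That bound holds for the processing used here. The Cdkn2b change of -3.56 lay between -4.07 and -0.68 over 22 alternatives and passed in each. The Ccnd1 call was lost in 9 alternatives, among them those without replicate 1 (-1.11, adjusted p = 0.0669) or replicate 2 (-0.79, adjusted p = 0.140) of this leukemia. Cdkn2a was also called lower in leukemias 713 and 760, at 1.84 and 2.14 below on the log2 scale, but neither had a spot well above background and the bounds were 1.11-fold and 1.12-fold. With scan day as a block Cdkn1a also passed in leukemia 760 (-1.1, adjusted p = 0.00805) and Ccnd2 in leukemia 686 (-0.83, adjusted p = 0.00697). Cdkn1a in leukemia 686 (-2.39 ± 0.54, adjusted p = 0.0715) passed in 11 of 23 alternatives. Among them were normexp with quantile normalization (-1.45, adjusted p = 0.0170), the authors' value table (-1.45, adjusted p = 0.0153) and scan day as a block (adjusted p = 0.00228). Ccnd1 in leukemia 686 (0.57 ± 0.20, adjusted p = 0.223) passed in 2 of 23, normexp with quantile normalization (adjusted p = 0.00896) and the authors' value table (adjusted p = 0.00574). In the main fit Ccnd3, Cdk4, Cdkn1b and Cdkn2c passed in none of the 3 tests. With scan day as a block Cdkn1b and Cdkn2c passed in none at their brightest probes. For Cdkn1b the differences lay between -0.19 and 0.14, with 95% intervals within -0.61 and 0.55.

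Other genes of the G1 to S phase transition were read from lists fixed beside the members. Their counts stand beside 31.2% higher and 27.6% lower of all genes against wt, 21.7% and 24.5% against dHet pro-B cells, and 15.6% and 14.2% in dHet against wt pro-B cells, and a count near these shares is no result about its list. Of 12 measured RB family and E2F genes, 6 were higher and 3 lower in leukemias than in wt pro-B cells, 4 and 3 against dHet pro-B cells, and 1 and 2 in dHet against wt pro-B cells, the lower counts near the shares of all genes. Tfdp1, the dimer partner of E2F factors, changed by 2.57 ± 0.24 against wt and 2.02 ± 0.24 against dHet pro-B cells, and the related Tfdp2 by -1.99 ± 0.17 and -3.24 ± 0.17. Rbl1, which encodes the RB relative p107, changed by 1.61 ± 0.17 and 1.04 ± 0.17. Rb1 itself was lower in the leukemias, by -1.97 ± 0.21 against wt and -1.29 ± 0.21 against dHet pro-B cells, and lower in dHet than in wt pro-B cells (-0.68 ± 0.20). E2f2, an activating E2F factor, was lower in leukemias than in wt pro-B cells (-2.97 ± 0.35) and in dHet than in wt pro-B cells (-1.87 ± 0.15).

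The E2F target genes of S phase were higher in 9 of 14 cases and lower in none against wt pro-B cells, with a median of 1.11. Relative to dHet pro-B cells 6 were higher and 1 lower (median 0.48), and in dHet against wt pro-B cells 3 were higher (median 0.52), near the share of all genes. The leading genes against wt were Tk1, the thymidine kinase of dividing cells (2.06 ± 0.24), and Rrm1, the large subunit of ribonucleotide reductase (1.56 ± 0.17). Against dHet pro-B cells they were Ung, which removes uracil from DNA (1.74 ± 0.29), and the replication licensing gene Cdc6 (1.22 ± 0.22), while Rrm2 was lower (-0.55 ± 0.12). Of 8 genes of cyclins E and A, CDK2 and the CDK-activating kinase, 6 were higher against wt and 3 against dHet pro-B cells, and none was lower. Ccna2, cyclin A2, changed by 1.64 ± 0.22 against wt, and Ccne1, cyclin E1, by 1.20 ± 0.24 against wt and 0.78 ± 0.24 against dHet pro-B cells. Cdk7, the catalytic subunit of the activating kinase, changed by 0.90 ± 0.16 against dHet pro-B cells.

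**Figure D5:**
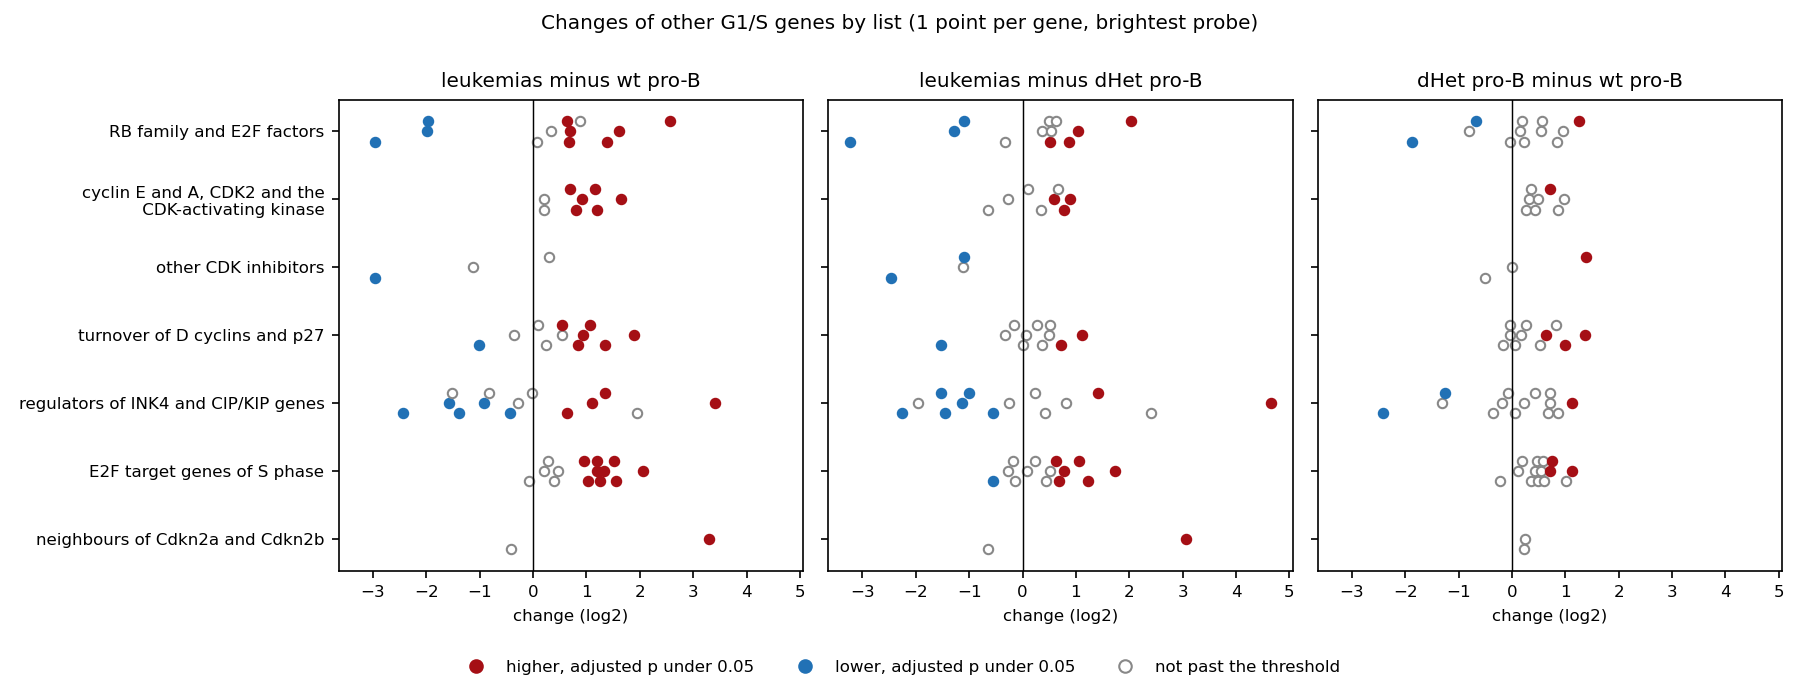
Change on the log2 scale (x axis) of each measured gene of 7 lists (rows) in the leukemias minus wt pro-B, the leukemias minus dHet pro-B and dHet pro-B minus wt pro-B cells. Red and blue points passed an adjusted p of 0.05 and open points did not. Of the E2F target genes, 9 of 14 are higher in leukemias than in wt pro-B cells.

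Of 11 genes for the turnover of D cyclins and p27, 6 were higher and 1 lower in leukemias than in wt pro-B cells, 2 and 1 against dHet pro-B cells, and 3 and 0 in dHet against wt pro-B cells, counts that against dHet lie near the shares of all genes or under them. Cks1b, a cofactor of the p27 ubiquitin ligase, was higher in leukemias than in wt pro-B cells (1.88 ± 0.20) and in dHet than in wt pro-B cells (1.36 ± 0.25). Skp2, which binds p27 for that ligase, was higher in dHet than in wt pro-B cells (0.99 ± 0.24) and in leukemias than in wt pro-B cells (1.06 ± 0.22), and differed by 0.07 ± 0.22 between leukemias and dHet pro-B cells. Gsk3b, whose kinase marks cyclin D1 for export and decay, was lower in the leukemias than in wt (-1.01 ± 0.17) and dHet pro-B cells (-1.53 ± 0.17). Fbxo31, a ubiquitin ligase subunit for cyclin D1, was higher than in dHet pro-B cells (1.11 ± 0.20).

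Among the regulators of the inhibitor genes, 4 of 14 were higher and 5 lower against wt pro-B cells, 2 and 6 against dHet pro-B cells, and 1 and 2 in dHet against wt pro-B cells, of which those against wt lie near the shares of all genes. Myc, whose product can repress Cdkn1a and Cdkn2b, was higher in the leukemias than in wt (3.40 ± 0.34) and dHet pro-B cells (4.67 ± 0.34), and lower in dHet than in wt pro-B cells (-1.26 ± 0.32), an order shared with Ccnd1. Trp53, the gene of p53, was higher in the leukemias (1.34 ± 0.18 against wt and 1.42 ± 0.18 against dHet pro-B cells), while Mdm2, the gene of its ubiquitin ligase, was lower (-0.92 ± 0.16 and -0.56 ± 0.16). Of the Polycomb genes that repress Cdkn2a, Bmi1 was higher against wt (1.11 ± 0.30, adjusted p = 0.0225) and Cbx7 lower (-2.44 ± 0.36). Foxo3, a forkhead factor that activates Cdkn1b, was not well above background on any leukemia array and was at least 1.59-fold lower than in dHet pro-B cells. Id2, an inhibitor of E proteins, was lower in dHet than in wt pro-B cells (-2.42 ± 0.28).

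The other CDK inhibitors did not move alike. Cdkn1c, the gene of p57, was lower in the leukemias than in wt (-2.97 ± 0.45) and dHet pro-B cells (-2.46 ± 0.45), and 1 of the 6 leukemia arrays detected it. Cdkn2d, the gene of p19INK4d, gave -1.12 ± 0.55 in both comparisons and passed in neither. Cdkn3, a phosphatase acting on CDKs, was lower in the leukemias than in dHet pro-B cells (-1.09 ± 0.26) and higher in dHet than in wt pro-B cells (1.39 ± 0.30). Of the genes next to Cdkn2a and Cdkn2b, Mtap was well above background on all arrays and higher in the leukemias than in wt (3.30 ± 0.16, adjusted p = 0.000223) and dHet pro-B cells (3.06 ± 0.16, adjusted p = 0.000459). Klhl9 did not pass, and Dmrta1 and Elavl2 did not pass the filter on dim probes.

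The genes most like each D cyclin were taken by Pearson r over the 10 array levels among 12146 named genes, as a description in which arrays of a group are not independent points. For Ccnd1 these were Tlcd2 (r = 0.995), Tcof1 (0.992) and Bag3 (0.992). For Ccnd2 they were Spry1 (0.989), Zfp747 (0.974) and Ppt2 (0.973). For Ccnd3, whose levels varied least, they were Gpr107 (0.970), Sbk1 (0.949) and Bex3 (0.945).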

How the data were processed

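Per the file headers, the deposited scanner files hold spot intensity values from Feature Extraction 10.5.1.1 (the submitters' processing notes name 9.1), with background subtracted within each array and no normalization between arrays. The authors deposited a table of log2 values too, used as an alternative. Coordinates are mm9, per the file headers.

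Control and outlier spots were left out, spots of a probe averaged, and the log2 processed signal scaled to each array's 75th percentile. Kept were probes that 1 group or more had well above background on both arrays (22301 of 41174, for 14464 genes). A probe with several spots counts as detected where at least 50% of them are. Tests used limma 3.58.1 in R 4.3.3 with Benjamini-Hochberg adjustment over all kept probes. The leukemias entered as 3 mouse means beside 2 dHet and 2 wt arrays. Other comparisons used 10 arrays in 5 groups. A bound sets the arrays of the dimmer, undetected group at their dimmest detected probe, and the brighter group at its own levels. The number of arrays, 2 a group, limits the precision. Equal replicate numbers, which among leukemias mark a shared slide and scan day, paired the leukemia arrays (deviations correlated at r between 0.44 and 0.633) and not the pro-B arrays (r between -0.04 and 0.076). On simulated data with 200 changed probes in the comparison of leukemias with wt pro-B cells (22301 probes), 107 were called. The simulated noise was that between arrays of a group, without variation between mice, so this recovery need not hold for the 3 mouse means.

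Named were all members, every probe, the leading called genes of each list, and the genes most like each D cyclin. The members and lists were chosen with earlier results of these data known. Alternatives were background correction, normalization, scaling, filters, leaving out arrays, slide, replicate and, added after seeing the data, scan day. Those with slide, replicate or scan day as a block took arrays in place of mice as replicates of the leukemias.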

Additional observations from a re-analysis of the deposited data

Results flagged for a closer look

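Members that differed between the leukemias are listed here, since each was tested as a leukemia against the mean of the other two (limma, 10 arrays). Ccnd1 differed by -0.95 and Ccnd2 by 1.69 in leukemia 760. Cdk6 differed by -1.38 in leukemia 713 and by 1.22 in leukemia 760. Cdkn1a differed by 3.48 in leukemia 713. Cdkn2a differed by 3.98 in leukemia 686, by -1.84 in leukemia 713 and by -2.14 in leukemia 760. All of these values rest on arrays of leukemias 713 and 760 without a spot well above background. Cdkn2b differed by 3.7 in leukemia 713 and by -3.56 in leukemia 760. It was well above background on 1 of the 4 arrays set against leukemia 713 and on neither array of leukemia 760.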

How the results depend on the processing

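No result changed to a called value of the opposite sign under the alternatives run. For Ccnd1, Cdk4 and Cdkn1b the calls of the leukemias against wt and against dHet pro-B cells held in all 24 alternatives, with changes against wt between 2.73 and 4.12, 2.19 and 3.12, and -2.23 and -1.30. Scaling by the array median moved the median change of all genes to 0.63, 0.15 and 0.48 in the leukemias against wt, the leukemias against dHet, and dHet against wt pro-B cells, and scaling on probes detected on all arrays to -0.30, -0.20 and -0.10.

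The counts moved as follows, and apart from genes removed by a filter the cause was not tested. With scan day, replicate number or slide as a block, arrays took the place of mice as replicates of the leukemias. Those counts of leukemias against pro-B cells therefore do not measure the variation between mice. Members lower in leukemias than in wt pro-B cells were 2 in place of 1 under normexp with quantile normalization, quantile normalization, scaling on probes detected on all arrays, the authors' value table and the second leukemia slide alone, and 3 with scan day as a block. The share of all genes lower in that comparison was 27.1% to 38.1% under these settings, against 27.6%. Members lower than in dHet pro-B cells were 3 in place of 1 under normexp and in the authors' value table, 2 with the second slide alone and 5 with scan day as a block, beside 24.3%, 24.3%, 25% and 32.7% of all genes in that order of settings, against 24.5%. Members lower in dHet than in wt pro-B cells were 3 in place of 1 under normexp, in the authors' value table, with scan day as a block or with either leukemia slide alone, and 2 under quantile normalization, scaling on probes detected on all arrays and slide as a random block, beside 15.3% to 26.2% of all genes, against 14.2%. Members higher in leukemias than in wt pro-B cells were 3 in place of 5 with slide as a random block, and between 2 and 5 when 1 array was left out (2 without wt replicate 1, where 20.5% of all genes were higher, against 31.2%). They were 6 with scan day as a block, beside 35.9% of all genes, and with slide as a random block 19.4% of all genes were higher. Members higher in dHet than in wt pro-B cells were 2 in place of 4 with probes detected on at least 8 arrays, and between 2 and 4 when 1 array was left out (2 without wt replicate 1, where 6.34% of all genes were higher, against 15.6%). The filter on at least 8 arrays removed Cdkn2a and Cdkn2b, so neither was tested under it, and 19.7% of all genes were higher there. The members higher in dHet than in wt pro-B cells were 6 with scan day as a block or either leukemia slide alone, beside 30.7% and 34.2% of all genes. They were 5 with slide as a random block, beside 28.3%. Members that passed in at least 1 leukemia were 8 in place of 6 with scan day as a block or slide as a random block, where more of all genes passed too. With slide as a random block, 5.22% of all genes were higher and 7.08% lower in leukemia 686. These shares were 16% and 13.4% in leukemia 713, and 10.7% and 12% in leukemia 760.

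With the replicate number as a block, the counts of lower members were 2 in the leukemias against wt, 4 against dHet pro-B cells and 2 in dHet against wt pro-B cells, beside 29.8%, 26.7% and 16.7% of all genes. The count of members higher in leukemias than in wt pro-B cells was 6, beside 33.8% of all genes. The numbers pair the leukemia arrays, by slide and scan day, and not the pro-B arrays. Dim probes limit Cdkn2a, Cdkn2b and the third Cdk6 probe, and replicate 1 of leukemia 686 detected fewer spots than any other array.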
